A study of Mus musculus with 18 samples.

Results

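The effect of carboplatin that LPS-primed and LPS-tolerant macrophages share was measured over 12 of the 18 RNA-Seq samples of the series, 6 with carboplatin and 6 without. All cells were bone marrow-derived macrophages (BMDMs), which are macrophages grown in a dish from mouse marrow, here from female C57BL/6 mice over 7 days with L929 cell conditioned medium, and no allele or genetic change is named for any group. The 4 groups had 3 biological replicates each: LPS-primed BMDMs, given LPS at 100 ng/ml for 24 h, their counterparts with 25 µM carboplatin, LPS-tolerant BMDMs, primed likewise and then moved to fresh medium with a second LPS dose of 10 ng/ml for 3 h, and their counterparts with 25 µM carboplatin. Every group thus received LPS, and the sources used here do not say whether the replicates came from separate mice. Carboplatin was added 1 h before the first LPS according to the methods, and together with it according to the labels. The LPS-tolerant cells changed medium and were harvested 3 h later than the LPS-primed cells, and only 1 dose of carboplatin was sequenced. The methods do not say whether the fresh medium held carboplatin, so exposure to the drug may differ between the states. The remaining 6 samples had no carboplatin counterpart and were not part of the comparison.

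Carboplatin is a platinum drug that binds guanines and ties DNA bases together within a strand or across both strands. Such adducts stall replication forks and RNA polymerase II, and cells answer through the p53 pathway, cell cycle checkpoints and crosslink repair. Macrophages that meet LPS switch on NF-κB and interferon programmes, and a second meeting with LPS finds many of the inflammatory genes repressed, a state known as LPS tolerance. The question of this comparison was which genes carboplatin moved in both states, including changes too small for a test of 3 samples against 3.

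Between 6869667 and 11351065 counts per sample fell on genes, with 6869667 to 10188149 in the samples with carboplatin and 8172462 to 11351065 in those without. All 10 macrophage markers, among them Csf1r, Cd68 and Spi1, were detected, and their summed level was 23500 to 30400 CPM (counts scaled to a fixed library total) with carboplatin and 26800 to 32700 CPM without. Of these markers, Cd14 was higher and Adgre1, Fcgr1, Itgam, Lyz2 and Mertk were lower with carboplatin. Of the markers of 8 other cell types, 8 had enough counts to be tested, 0 to 3 for a type and none for T and NK cells, mast cells and basophils or erythroid cells, and none of these passed. Neutrophil markers summed to 15.8 to 59.1 CPM with and 9.59 to 58.9 CPM without carboplatin, with Ly6g, Mpo, Ngp and Retnlg at 0 in all 12 samples, and B cell markers to 49.6 to 125 CPM with and 46 to 106 CPM without, with Ms4a1 and Pax5 at 0.

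Carboplatin lowered more genes than it raised with TMM scaling, but not with scaling to the total counts alone (780 higher and 713 lower), and the reductions were deeper. Of 10864 genes tested, 465 (4.28%) were higher and 844 (7.77%) lower with carboplatin, 12% in all, at an adjusted p under 0.05 in edgeR's quasi-likelihood test with the LPS state and the replicate number in the model. The log2 fold change (log2FC) is the base 2 logarithm of the level with carboplatin over the level without, it is given ± its standard error (SE), a fall or a rise is on this log2 scale, and n is 6 against 6 unless a state is named. The median log2FC of the genes that rose was 0.353, and that of the genes that fell was -0.561, against 0.0128 over all tested genes. Most changes were modest: 1081 of the 1309 genes had a log2FC under 1 in size, 833 a fold change under 1.5, and 42 a fold change of 4 or more. In bulk RNA, fewer cells of a type and less RNA per cell cannot be told apart.

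Of the 42 genes past 4-fold, 41 were lower, and 7 of those had under 4 normalized counts in every sample with carboplatin, so that their fold is poorly known. The gene that rose past 4-fold was Slc40a1 (ferroportin, the iron exporter), named after its values were seen. It had normalized counts, that is counts scaled to a common library size, of 20.2, 8.49 and 15.8 in LPS-primed cells and 43.7, 51.4 and 38.1 with carboplatin. In LPS-tolerant cells the counts were 1.21, 3.27 and 3.91 without and 52.7, 28.8 and 25.0 with carboplatin. All 6 samples with carboplatin were above all 6 without, and the log2FC was 2.26 ± 0.35 (adjusted p = 2.06e-04).

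The 8 genes with the smallest p in the upward direction, taken among those with all 6 same-numbered pairs alike, encode a surface receptor, chaperones, cell cycle brakes and the large subunit of RNA polymerase II. Procr (the endothelial protein C receptor, chr2:155593031-155597397 on GRCm39) had 1054, 153 and 356 normalized counts in LPS-primed cells and 2476, 471 and 1011 with carboplatin, and 1672, 291 and 624 in LPS-tolerant cells and 2926, 711 and 1221 with carboplatin. Its level differed several-fold between replicate numbers, so the groups overlapped, and the log2FC was 1.21 ± 0.092 (adjusted p = 4.44e-08). Polr2a (chr11:69624820-69649468), the catalytic subunit of RNA polymerase II, did not overlap between the 6 samples with and the 6 without carboplatin. Its lowest, median and highest normalized counts were 2259, 2613 and 2998 without and 3562, 4041 and 4215 with the drug, a log2FC of 0.60 ± 0.062 (adjusted p = 1.77e-06). Gadd45a (chr6:67012070-67014441), a stress gene that acts on growth arrest, did not overlap either, with 231, 279 and 370.0 without and 417, 499.5 and 593 with carboplatin and a log2FC of 0.85 ± 0.11 (adjusted p = 1.81e-05). Hspa1b (an inducible Hsp70, log2FC 1.55 ± 0.14) and its cochaperone Bag3 (0.55 ± 0.068) rose too, but Hspa1b shares nearly all of its sequence with Hspa1a, so reads between these paralogs are uncertain. Tuba4a (an alpha tubulin, 0.56 ± 0.067) and Flrt3 (an adhesion protein, 0.86 ± 0.088) completed the upward set. The libraries were stranded according to the methods, but the strand setting of the counting is not given in the sources used here. Whether reads were told apart between the named genes and protein-coding partners on the other strand is therefore not known. Such pairs were Flrt3 and Macrod2, Tuba4a and Stk16, Dock2 and Insyn2b, Babam2 and Rbks, Snd1 and Lrrc4, and Safb2 and Safb. Further pairs were Smg5 and Tmem79, Fhod1 and Tmem208, Ccng1 and Nudcd2, Cdk1 and Ank3, Fanci and Polg, and Mad2l2 and Fbxo6. Xab2 and Camsap3, Lig1 and Zswim9, Mnat1 and Trmt5, Dusp1 and Ergic1, Klf2 and Eps15l1, and Pdia6 and Atp6v1c2 were pairs too. So were Manf and Dcaf1, Hspa5 and Rabepk, Ppp1r15a and Tulp2, Cyp51 and Akap9, and Cbx5 and Hnrnpa1.

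The 8 genes with the smallest p in the downward direction, taken in the same way, spanned 388 to 725 kb. Dock2 (chr11:34176815-34674798, a span of 498 kb), an activator of Rac in leukocyte migration, had 2708, 3495 and 2700.1 normalized counts in LPS-primed cells and 1163, 1339 and 1136 with carboplatin. In LPS-tolerant cells it had 2478, 2634 and 2236 without and 1031, 905 and 899.9 with carboplatin. All 6 samples with carboplatin were below the 6 without, and the log2FC was -1.33 ± 0.069 (adjusted p = 4.88e-10). Slc9a9 (an endosomal sodium and proton exchanger, 561 kb) had the deepest fall of the 8, from 67.5, 272 and 120.1 to 7.71, 35.4 and 13.3 normalized counts in LPS-primed cells and from 86.1, 222 and 90.9 to 10.0, 21.3 and 12.1 in LPS-tolerant cells, a log2FC of -3.08 ± 0.18 (adjusted p = 1.42e-09). Babam2 (a BRCA1-A complex subunit), Snd1 (an RNA-binding nuclease), Arhgap24 and Arhgap15 (GTPase-activating proteins for Rac), Exoc4 (an exocyst subunit) and Trappc9 (a vesicle transport subunit) had log2FCs of -1.40, -1.22, -1.42, -2.69, -1.24 and -2.04. None of the 8 overlapped between the samples with and without carboplatin.

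The called genes moved in one direction in both LPS states. All 1309 had the same sign in LPS-primed and in LPS-tolerant cells, 525 also passed the test of 3 against 3 in LPS-primed cells, 504 that in LPS-tolerant cells, 285 both and 565 neither. The tests within a state called 601 genes (5.53%) in LPS-primed cells and 566 (5.21%) in LPS-tolerant cells, and 138 of these did not pass over both states. The main effect is nearly the mean of the state effects, so the shared sign of the called genes follows from the way they were called. Over all 10864 genes, whose state effects share no samples, 65.5% had the same sign (Pearson's r of 0.571, Spearman's rho of 0.458, given across genes as a description). Among the called genes 1078 changed the same way in all 6 same-numbered pairs, against 2028 (18.7%) of all tested genes. The samples with and without carboplatin did not overlap for 189 of them, against 198 (1.82%) of all tested genes. The calls used the values of these same samples and pairs. Both counts therefore describe the called genes and are no further support for them.

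**Figure D1:**
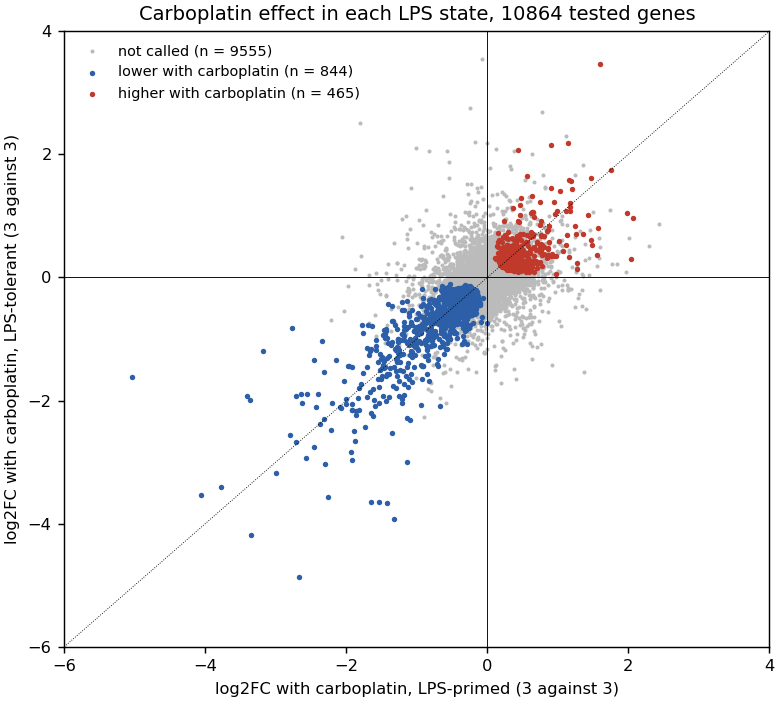
Each point is a gene, with the log2FC of carboplatin in LPS-primed BMDMs (3 against 3) on the horizontal axis and in LPS-tolerant BMDMs (3 against 3) on the vertical axis; the dotted line marks equal effects, and 2 genes lie outside the axes. Red points are the 465 genes called higher and blue points the 844 called lower over both states, and the blue points reach much further from 0 than the red ones.

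These counts rested on the replicate number. Same-numbered samples deviated together, and without the replicate number in the model 239 genes passed (16 higher, 223 lower), all of which were among the 1309. The count of higher genes was 238 without LPS-primed replicate 1, 270 without the carboplatin-treated LPS-primed replicate 3 and 284 without the carboplatin-treated LPS-tolerant replicate 2.

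The small effects were the called genes with a log2FC under 1 in size and an adjusted p of 0.05 or more in both tests of 3 against 3. Both of these tests took their spread from the fit of all 12 samples. There were 513 of them (4.72% of the tested genes), 251 higher and 262 lower, a split that was 443 and 233 with scaling to the total counts. Their absolute log2FC had a median of 0.324 and ran from 0.182 to 0.999, so the median fold change was 1.25, and 442 of the 513 were under 1.5-fold. They changed the same way in all 6 pairs in 416 cases, 205 higher and 211 lower, against 2028 (18.7%) of all tested genes. The calls used these same pairs, so this agreement is a description and no further support. The median SE of the log2FC of the small effects was 0.0898 over the 12 samples and 0.129 in either state. Their median level, at a log2 CPM of 5.38, was above the 4.65 of all tested genes. With a separate fit of the 6 samples of each state, 289 genes met the same definition, 280 of them among the 513. The other members of the 513 either passed in at least 1 such fit or were not tested in both. Without the replicate number 111 genes met the definition (12 higher, 99 lower), 2 of them among the 513. Without LPS-primed replicate 1 there were 317 (110 higher, 207 lower; 205 among the 513), and without the carboplatin-treated LPS-tolerant replicate 2 there were 331 (200 among the 513).

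The small effects described next were the 8 in each direction with the smallest p among those with all 6 pairs alike, so the agreement of their pairs follows from the choice. Chd3, an ATPase of the NuRD chromatin remodelling complex, had 967, 711 and 1052 normalized counts in LPS-primed cells and 1192, 1071 and 1166 with carboplatin, and 672, 613 and 667 in LPS-tolerant cells and 829, 795 and 852 with carboplatin. All LPS-tolerant samples with the drug lay above those without, and so did those of the LPS-primed state. The log2FC was 0.34 ± 0.071 (adjusted p = 0.00309), while the adjusted p was 0.0593 in LPS-primed and 0.0622 in LPS-tolerant cells. Hp1bp3, a linker histone-like protein that binds heterochromatin protein 1, rose from 1179.6, 1300.5 and 1252 to 1390.4, 1602 and 1496 normalized counts in LPS-primed cells and from 935, 1134 and 988 to 1154, 1329.8 and 1222 in LPS-tolerant cells. The fold change was 1.21, a log2FC of 0.27 ± 0.058 (adjusted p = 0.00372).

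Bclaf1 (a transcription and splicing regulator, log2FC 0.31 ± 0.067), Safb2 (a nuclear scaffold RNA-binding protein, 0.30 ± 0.067) and Smg5 (a nonsense-mediated decay factor, 0.37 ± 0.082) belonged to the same set. Dnajb2 (an Hsp40 cochaperone, 0.56 ± 0.12), Foxj2 (a forkhead transcription factor, 0.44 ± 0.10) and Fhod1 (an actin-organising formin, 0.31 ± 0.071) completed it, with adjusted p from 0.00309 to 0.0058 over the 8 genes. Of the small increases, 4 did not overlap between the samples with and without carboplatin, namely Chd8 (a chromatin remodeller, 0.21 ± 0.063), Fam53c (0.35 ± 0.095), Gpalpp1 (0.30 ± 0.089) and Stk35 (a kinase, 0.47 ± 0.15), which were named after their values were seen.

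Of the small decreases, Mmp14, a membrane-bound matrix metalloproteinase, had 4224, 6389 and 4286 normalized counts in LPS-primed cells and 3388, 5202 and 3834 with carboplatin, and 4264, 6686 and 4542 in LPS-tolerant cells and 3490.5, 5477 and 3949.6 with carboplatin. Replicate 2 was highest in every group, so the groups overlapped, and the log2FC was -0.26 ± 0.053 (adjusted p = 0.00273). Lgals1 (galectin-1, a secreted sugar-binding protein) fell from 7878, 5648 and 5221 to 6173, 4838 and 4580.4 normalized counts in LPS-primed and from 9294, 6824 and 5925 to 8104, 5396 and 4899.5 in LPS-tolerant cells, a log2FC of -0.26 ± 0.055 (adjusted p = 0.00337). The estimates in the separate states were close to each other, -0.26 and -0.26 for Mmp14 and -0.25 and -0.27 for Lgals1, each with an adjusted p just above 0.05. Timp2 (a metalloproteinase inhibitor, -0.30 ± 0.066), Ly6e (an interferon-inducible surface protein, -0.34 ± 0.074), Slc7a8 (a neutral amino acid transporter, -0.39 ± 0.084) and Antxr1 (anthrax toxin receptor 1, -0.84 ± 0.18) were of the same set. So were Ttc27 (-0.61 ± 0.13) and Nsmce2 (the SUMO ligase of the SMC5/6 complex, -0.54 ± 0.12). The small decreases without overlap between samples with and without carboplatin numbered 9, among them Rpn1 (a subunit of the enzyme that attaches N-glycans, -0.22 ± 0.058) and Abcg2 (a drug efflux pump, -0.67 ± 0.17).

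**Figure D2:**
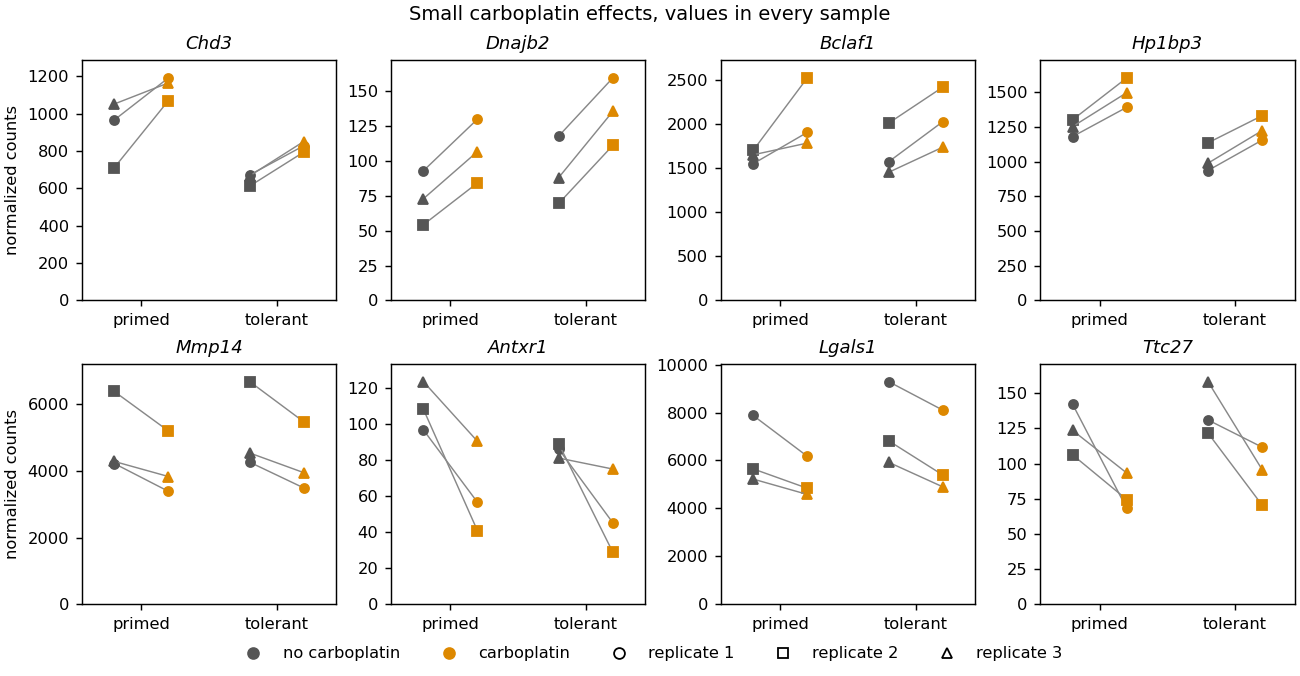
Normalized counts in each of the 12 samples for the 4 small increases (top row) and 4 small decreases (bottom row) with the smallest p among those with all 6 pairs alike; grey symbols are samples without and orange symbols samples with carboplatin, and lines join same-numbered replicates (circle, square and triangle for 1, 2 and 3). By that choice every line rises in the top row and falls in the bottom row; the size of the steps and the spread among the replicates of a group are what the plot shows.

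Genes that p53 switches on were raised in part, and none was lowered. Of 41 tested targets, 13 rose and 0 fell, and the median log2FC was 0.258. The counts of each list stand against 4.28% higher and 7.77% lower over all tested genes. Cdkn1a (chr17:29309936-29319701), which encodes the cyclin-dependent kinase inhibitor p21, had 1079.8, 520.2 and 978 normalized counts in LPS-primed cells and 2086, 921 and 1713 with carboplatin. In LPS-tolerant cells it had 895, 390.4 and 825 without and 1398, 912 and 1137 with carboplatin. Replicate 2 was low throughout, the groups therefore overlapped, and all 6 pairs rose, with a log2FC of 0.82 ± 0.084 (adjusted p = 1.58e-06). Ccng1 (cyclin G1) rose by 0.61 ± 0.11 on the log2 scale (adjusted p = 6.02e-04), with lowest, median and highest normalized counts of 404, 483 and 716 without and 441, 757 and 1067 with the drug. Mdm2, the ubiquitin ligase that restrains p53, rose by 0.31 ± 0.077 (adjusted p = 0.0124), Phlda3, an inhibitor of Akt, by 1.18 ± 0.25 (adjusted p = 0.00307) and Bbc3, which encodes the cell death protein PUMA, by 0.72 ± 0.18 (adjusted p = 0.0101). Of the targets, 7 passed the test within LPS-primed and 3 that within LPS-tolerant cells. Without the replicate number no target passed, and without LPS-primed replicate 1 the count was 8.

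The promoter of Cdkn1a is shown because it was the one among the promoters of 12 called p53 targets to hold the p53 response element in its strict form, that is 2 half-sites with no mismatch and a spacer of 0 to 13 bases. It is RefSeq sequence of GRCm38.p6, from 250 bases before to 50 after the start, at chr17:29090729-29091028 on the plus strand, with the strict match in capitals. The bases directly after the capitals form a further half-site with a mismatch, which the strict form leaves out, so the capitals need not be the borders of the element.
Cdkn1a: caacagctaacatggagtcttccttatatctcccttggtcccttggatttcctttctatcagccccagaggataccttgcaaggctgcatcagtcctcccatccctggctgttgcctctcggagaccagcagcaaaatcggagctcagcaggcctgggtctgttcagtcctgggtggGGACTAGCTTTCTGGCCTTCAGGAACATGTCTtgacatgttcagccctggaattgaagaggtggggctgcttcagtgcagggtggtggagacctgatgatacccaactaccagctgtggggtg
The strict element was found in 2 of 8807 promoters of tested genes and in 16 of all 27025. A window without it says only that these letters are absent there.

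Genes of cell division fell. In the G2/M-phase list, which holds the machinery of chromosome condensation, the spindle and cytokinesis, 34 of 54 tested genes fell, 0 rose, and the median log2FC was -0.949. In the S-phase list of replication genes, 15 of 41 fell and 0 rose, with a median of -0.42. Anln (anillin, the scaffold of the cleavage furrow, chr9:22242402-22300501) had 50.4, 118 and 116 normalized counts in LPS-primed cells and 11.6, 36.3 and 29.5 with carboplatin, and 52.2, 114 and 98.7 in LPS-tolerant cells and 5.02, 16.0 and 20.7 with carboplatin. No sample with carboplatin reached the lowest sample without it, and the log2FC was -2.23 ± 0.20 (adjusted p = 3.44e-07). Top2a (DNA topoisomerase II alpha, chr11:98883769-98915062) fell from 329.7, 634 and 627 to 119.5, 257 and 210.3 in LPS-primed and from 217, 742 and 409 to 139, 178 and 147 in LPS-tolerant cells, at a log2FC of -1.46 ± 0.13 (adjusted p = 3.52e-07). In Top2a, replicate 1 was low without the drug and overlapped with treated samples of the other numbers.

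Among cyclins, their kinases and inhibitors, 10 of 30 fell and Cdkn1a rose, with a median log2FC of -0.331. Ccnb1 and Ccnb2, the B-type cyclins of mitosis, had log2FCs of -1.80 ± 0.21 (adjusted p = 6.63e-06) and -1.65 ± 0.23 (adjusted p = 6.91e-05). The lowest, median and highest normalized counts of Ccnb1 were 43.4, 65.8 and 113 without and 10.3, 19.6 and 26.6 with carboplatin. Cdk1, the kinase they activate, fell by 1.01 ± 0.16 (adjusted p = 1.90e-04). Among replication genes, Mcm5, a subunit of the replicative helicase, fell from 80.0, 116 and 249 to 51.4, 63.2 and 88.6 in the same order, a log2FC of -0.98 ± 0.15 (adjusted p = 1.57e-04). Pola1, the catalytic subunit of DNA polymerase alpha, had a log2FC of -1.70 ± 0.26 (adjusted p = 1.99e-04). Without the replicate number 20 G2/M-phase, 4 S-phase and 6 cyclin and kinase genes passed. Leaving out single libraries left 28 to 36 G2/M-phase genes, and 10 S-phase genes at the lowest, without the carboplatin-treated LPS-tolerant replicate 2.

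The promoters of 3 division genes are shown because they carry elements that such genes are known to share. RefSeq promoters of GRCm38.p6 (250 bases before to 50 after the start) were matched for 29 of the 34 called G2/M-phase genes, and the first listed promoter of each gene was searched on both strands for the cell cycle homology region (CHR, TTTGAA or TTTAAA) and for CCAAT. The windows below are chr11:99024140-99024439, chr9:70421505-70421804 and chr9:22389157-22389456, all on the minus strand of the chromosome and written 5′ to 3′ of the gene, with CHR and CCAAT matches on either strand in capitals. The Anln window holds no CCAAT.
Top2a: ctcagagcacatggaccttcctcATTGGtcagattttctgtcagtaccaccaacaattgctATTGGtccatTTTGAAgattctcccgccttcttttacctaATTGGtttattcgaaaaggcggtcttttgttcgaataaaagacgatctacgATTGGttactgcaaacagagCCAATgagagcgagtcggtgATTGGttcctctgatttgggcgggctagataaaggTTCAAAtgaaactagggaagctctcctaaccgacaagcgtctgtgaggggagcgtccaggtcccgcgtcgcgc
Ccnb2: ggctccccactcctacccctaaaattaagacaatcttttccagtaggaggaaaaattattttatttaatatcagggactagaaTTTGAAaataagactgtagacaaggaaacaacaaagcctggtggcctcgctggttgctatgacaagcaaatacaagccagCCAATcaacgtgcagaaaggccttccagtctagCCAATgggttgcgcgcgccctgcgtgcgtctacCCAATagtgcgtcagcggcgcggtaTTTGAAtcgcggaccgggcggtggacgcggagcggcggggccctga
Anln: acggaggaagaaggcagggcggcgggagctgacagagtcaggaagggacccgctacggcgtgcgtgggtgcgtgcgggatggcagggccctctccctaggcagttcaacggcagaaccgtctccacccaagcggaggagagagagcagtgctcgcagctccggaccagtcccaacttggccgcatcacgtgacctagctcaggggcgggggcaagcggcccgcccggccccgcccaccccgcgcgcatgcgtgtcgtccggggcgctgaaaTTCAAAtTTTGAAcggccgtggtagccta
A CHR was present in 24 of the 29 promoters (82.8%), against 19.2% of 8807 promoters of tested genes and 27.8% of all 27025. CCAAT was present in 21 (72.4%), against 39.5% and 37.9%. Over the 48 matched G2/M-phase genes tested, called or not, the shares were 79.2% and 77.1%. Of 13 called S-phase genes, 4 (30.8%) held a CHR and 12 (92.3%) CCAAT.

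DNA repair genes moved in both directions, and most did not pass the test, as was so for 9555 of the 10864 tested genes. In crosslink repair and homologous recombination, 7 of 39 tested genes fell (17.9%, against 7.77% of all genes), 1 rose (2.56%, against 4.28%) and 31 did not pass (median log2FC -0.136). In nucleotide excision repair, which removes crosslinks within a strand, 3 of 27 fell and 3 rose. This was 11.1% each, against 7.77% and 4.28% of all genes. In this list 21 genes did not pass, and the median was 0.059. Fanci, which marks crosslinks together with Fancd2, had 11.1, 31.8 and 26.3 normalized counts in LPS-primed cells and 5.14, 4.43 and 2.85 with carboplatin, and 13.3, 15.5 and 14.7 in LPS-tolerant cells and 10.0, 3.20 and 4.31 with carboplatin, a log2FC of -1.90 ± 0.41 (adjusted p = 0.00372). The samples with and without carboplatin did not overlap, though the counts were few. Mad2l2, the REV7 subunit of translesion polymerase zeta, was the member that rose, by 0.50 ± 0.15 (adjusted p = 0.0356), and its call was lost in 13 of 27 alternatives. Of the excision repair genes, Ercc5 (the XPG nuclease, 0.53 ± 0.12), Ercc6 (CSB, which acts at stalled RNA polymerase, 0.38 ± 0.10) and Xab2 (an XPA-binding splicing factor, 0.25 ± 0.068) rose, while Lig1 (DNA ligase I, -0.68 ± 0.13), Mnat1 and Gtf2h2 (TFIIH subunits, -0.46 ± 0.10 and -0.35 ± 0.089) fell. Without the replicate number 1 crosslink repair gene and 0 excision repair genes passed. Crosslink repair genes numbered 4 without the carboplatin-treated LPS-primed replicate 2 or either LPS-tolerant replicate 2, and 5 without the carboplatin-treated LPS-primed replicate 3, the LPS-primed replicate 2 or the LPS-tolerant replicate 3.

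In the BCL2 family and apoptosis list, 2 of 24 genes rose (8.33%, against 4.28% of all genes) and 0 fell, with a median log2FC of 0.0291. They were Bbc3, described above, and Bcl2l11 (BIM, which promotes cell death), which rose by 0.66 ± 0.17 (adjusted p = 0.0127). The count was 5 without LPS-primed replicate 2, 4 without LPS-tolerant replicate 1, 1 without the carboplatin-treated LPS-primed replicate 3, and 0 without the replicate number.

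**Figure D3:**
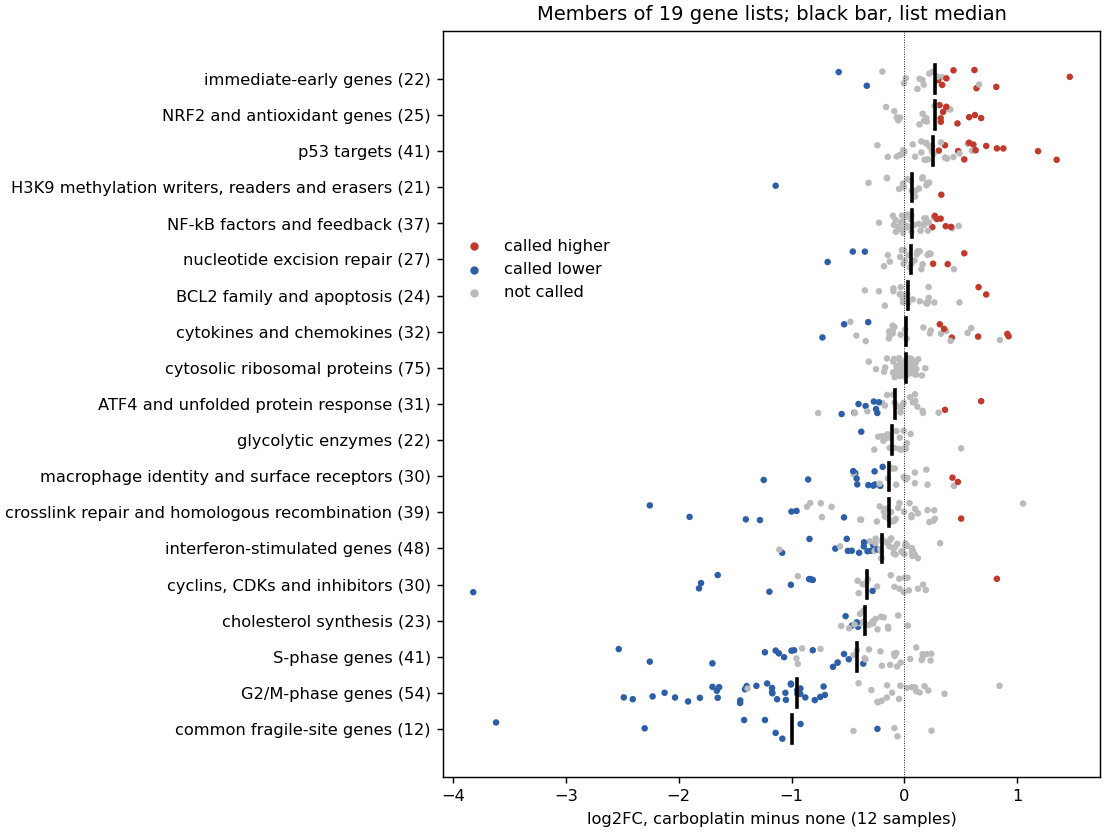
The log2FC of carboplatin over the 12 samples for every tested member of 19 gene lists (number tested in brackets), with red for members called higher, blue for members called lower and grey for the others; black bars mark list medians. The G2/M-phase list reaches past -2 with a median of -0.949, whereas the 75 ribosomal protein genes lie close to 0.

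Among cytokines and chemokines, 6 of 32 rose, 3 fell and 23 did not pass, with a median log2FC of 0.014. Within a state the median was 0.207 with 9 called in LPS-primed and 0.00395 with 2 called in LPS-tolerant cells, and this difference between the states was not tested. Il1b, which encodes the inflammasome cytokine IL-1β, had 23261, 2273 and 17965 normalized counts in LPS-primed cells and 40599, 7338 and 33657 with carboplatin. In LPS-tolerant cells it had 24496, 1366 and 9107 without and 27013, 4359.7 and 11450.0 with carboplatin. Its level differed more between replicate numbers than with the drug, each pair rose, and the log2FC was 0.91 ± 0.18 (adjusted p = 0.00161). Il1a rose by 0.65 ± 0.15 (adjusted p = 0.00659), and the neutrophil attractants Cxcl1 and Cxcl2 by 0.42 ± 0.11 and 0.31 ± 0.092. The members that fell were Vegfa (an angiogenic factor, -0.53 ± 0.10, adjusted p = 9.75e-04), Ccl6 (-0.32 ± 0.085) and Ccl12 (-0.73 ± 0.23), both monocyte chemokines.

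Tnf and Il6, cytokines commonly used to define LPS tolerance, passed over both states, and of the tests within a state they passed that of LPS-primed cells. Tnf had 271, 329 and 249.8 normalized counts in LPS-primed cells and 332, 470.2 and 391 with carboplatin, and 2448, 1927 and 2143 in LPS-tolerant cells and 2832, 2510.2 and 2339 with carboplatin. All pairs were higher with the drug, and the log2FC of 0.35 ± 0.094 (adjusted p = 0.0175) was a fold change of 1.28. Il6 had 117, 6.37 and 75.4 normalized counts in LPS-primed and 352, 52.2 and 155 in carboplatin-treated LPS-primed cells, and 419.6, 11.4 and 61.6 and 383, 52.3 and 70.7 in LPS-tolerant cells. In 5 of 6 pairs it was higher, and the log2FC was 0.92 ± 0.30 (adjusted p = 0.0492). The log2FC of Tnf was 0.50 ± 0.14 (adjusted p = 0.0353) in LPS-primed and 0.23 ± 0.12 (adjusted p = 0.326) in LPS-tolerant cells. That of Il6 was 1.55 ± 0.39 (adjusted p = 0.0227) in LPS-primed and 0.36 ± 0.37 (adjusted p = 0.675) in LPS-tolerant cells. For Tnf the effect in LPS-tolerant cells less that in LPS-primed cells was -0.27 ± 0.18 (SE, adjusted p = 0.881), and for Il6 it was -1.19 ± 0.54 (adjusted p = 0.851). These calls were close to the threshold: over the alternatives the adjusted p of Tnf ran from 0.00223 to 0.202 and that of Il6 from 0.00113 to 0.769, with both lost without the replicate number (0.151 and 0.769) and with all 18 samples (0.202 and 0.143), and Il6 in DESeq2 (0.0706) and limma-voom (0.0637). Tnf was also lost, at 0.0513 to 0.0597, without LPS-primed replicate 1, LPS-tolerant replicate 2, the carboplatin-treated LPS-primed replicate 2 or 3, or the carboplatin-treated LPS-tolerant replicate 1, and Il6 without any single library other than LPS-primed replicate 3, LPS-tolerant replicate 1 and the carboplatin-treated LPS-tolerant replicate 3.

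Of NF-κB factors and their feedback inhibitors, 6 of 37 rose and 0 fell (median log2FC 0.0634). Rela and Rel, which encode NF-κB subunits, rose by 0.29 ± 0.081 (adjusted p = 0.0241) and 0.41 ± 0.13 (adjusted p = 0.0492), and Nfkbiz, a nuclear cofactor of NF-κB, by 0.37 ± 0.079 (adjusted p = 0.00369). Tnfaip2 rose by 0.32 ± 0.078 (adjusted p = 0.00969). Immediate-early genes, which answer within minutes to many stimuli, rose in 8 of 22 cases and fell in 2, with a median of 0.274. Fos, a subunit of AP-1, did not overlap between samples, with 255, 549 and 638 normalized counts as lowest, median and highest without and 664, 713 and 947 with carboplatin, a log2FC of 0.64 ± 0.14 (adjusted p = 0.00419). Dusp1, a phosphatase that switches off MAP kinases, rose by 0.44 ± 0.084 (adjusted p = 0.00147), in 5 of 6 pairs. Myc, a driver of growth, and Klf2, which restrains macrophage activation, fell, with log2FCs of -0.58 ± 0.14 and -0.33 ± 0.11, and the call of Klf2 was lost in 17 of 27 alternatives. Without the replicate number no member of the cytokine, NF-κB or immediate-early lists passed. Leaving out 1 library at a time, the cytokine count was 4 or 5 without LPS-primed replicate 1, the carboplatin-treated LPS-primed replicate 3 or the carboplatin-treated LPS-tolerant replicate 2, the immediate-early count 5 or 6 without replicate 1 or 3 of either LPS-primed group, and the NF-κB count 2 or 3 without any of 7 libraries (replicates 1 and 3 of the LPS-primed group, 2 and 3 of its treated group, 2 of the LPS-tolerant group, and 1 and 2 of its treated group).

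Interferon-stimulated genes went down where they moved. Of 48 tested genes, 14 fell and 0 rose, and the median log2FC was -0.2. Of the 14, 8 were small effects that neither test of 3 against 3 resolved. Ifit3, an antiviral RNA-binding protein, had 229.9, 773 and 267 normalized counts in LPS-primed cells and 79.7, 569 and 164 with carboplatin, and 159, 296 and 133 in LPS-tolerant cells and 47.7, 155 and 106 with carboplatin. The groups overlapped, each of the 6 pairs fell, and the log2FC was -0.84 ± 0.18 (adjusted p = 0.00303), though reads shared with its near copy Ifit3b are uncertain. Zbp1, a sensor of Z-form nucleic acids, Oas3, which makes 2-5A, and Bst2 (tetherin) had log2FCs of -0.40 ± 0.09, -0.33 ± 0.082 and -0.30 ± 0.076. The count was 0 without the replicate number, 0 with all 18 samples in the fit and the replicate number kept, 6 without the carboplatin-treated LPS-primed replicate 3 or the carboplatin-treated LPS-tolerant replicate 2, and 7 without the carboplatin-treated LPS-primed replicate 1.

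Antioxidant genes rose where they moved. Of 25 genes under NRF2 or with antioxidant roles, 10 rose and 0 fell, with a median log2FC of 0.267. Gclm, the modifier subunit of the enzyme that limits glutathione synthesis, had 1188, 839.8 and 1312 normalized counts in LPS-primed cells and 2075, 1506 and 1825 with carboplatin, and 1295, 1166 and 1264 in LPS-tolerant cells and 1933, 1802 and 1720.5 with carboplatin. No treated sample was below an untreated one, and the log2FC was 0.62 ± 0.079 (adjusted p = 1.97e-05). Its partner Gclc rose by 0.57 ± 0.091 (adjusted p = 2.42e-04), catalase (Cat) by 0.37 ± 0.056 (adjusted p = 1.50e-04) and the thioredoxin reductase Txnrd1 by 0.37 ± 0.077 (adjusted p = 0.00281). Slc7a11, the cystine importer, rose by 0.68 ± 0.17 (adjusted p = 0.0127), with a log2FC of 1.27 in LPS-primed and 0.14 in LPS-tolerant cells. The difference between these state effects was -1.14 ± 0.22 (adjusted p = 0.167). The count of this list was 10 to 12 whichever single library was left out, and 2 without the replicate number.

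Other stress and metabolic genes were lower or moved little. In the list of ATF4 targets and unfolded protein response genes, 8 of 31 fell and 2 rose (median log2FC -0.0867). The members that fell were largely helpers of protein folding in the endoplasmic reticulum, such as Pdia6 (-0.44 ± 0.065, adjusted p = 9.74e-05), Manf (-0.34 ± 0.066, adjusted p = 0.00143) and Hspa5 (BiP, -0.25 ± 0.061, adjusted p = 0.00969), and those that rose were Slc7a11 and Ppp1r15a (GADD34, 0.36 ± 0.077, adjusted p = 0.0037). In cholesterol synthesis, 22 of 23 genes had a log2FC below 0 with a median of -0.352, but 4 passed the test: Fdps (farnesyl diphosphate synthase, -0.46 ± 0.089), Mvk (mevalonate kinase, -0.52 ± 0.13), Insig1 (-0.42 ± 0.12) and Cyp51 (-0.41 ± 0.12). An unadjusted p under 0.05 was reached by 18 of the 23. The cholesterol count was 9 without LPS-primed replicate 2, 8 without the carboplatin-treated LPS-primed replicate 1, 2 without the carboplatin-treated LPS-tolerant replicate 1, and 0 without the replicate number. Of 22 genes in the list of glycolytic enzymes 1 fell, the pyruvate dehydrogenase kinase Pdk1 (-0.38 ± 0.085, adjusted p = 0.00479), which is not itself an enzyme of glycolysis. The median was -0.106, with 4 called without LPS-primed replicate 3 and 2 without LPS-primed replicate 2, its treated replicate 1 or LPS-tolerant replicate 2. Of 75 cytosolic ribosomal protein genes, edgeR and limma-voom called 0 and DESeq2 2, with 3 at an unadjusted p under 0.05 in edgeR and a median log2FC of 0.0139. Rplp0 and Rpl4, the most abundant of them, had log2FCs of 0.048 ± 0.058 and 0.12 ± 0.055.

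Of 30 surface receptors and identity genes of macrophages, 12 fell, 2 rose and 16 did not pass, with a median log2FC of -0.135. Mrc1 (the mannose receptor CD206, chr2:14234151-14336926) had 1033, 1459 and 443 normalized counts in LPS-primed cells and 430.5, 1029.9 and 229 with carboplatin, and 899, 1517 and 239 in LPS-tolerant cells and 449, 789 and 186 with carboplatin. Replicate 3 was low with and without the drug, so the groups overlapped, and each pair fell, at a log2FC of -0.85 ± 0.11 (adjusted p = 1.81e-05). Adgre1 (F4/80) fell by 0.42 ± 0.059 (adjusted p = 7.25e-05), Mertk, a receptor for dying cells, by 0.42 ± 0.11 (adjusted p = 0.0149), and Cx3cr1, the fractalkine receptor, by 1.25 ± 0.26 (adjusted p = 0.00256). The 2 that rose were Cd14, the LPS co-receptor (0.43 ± 0.086, adjusted p = 0.00239), and Cebpa, a myeloid transcription factor (0.47 ± 0.13, adjusted p = 0.0255), the latter higher in 5 of 6 pairs and lost in 12 of 27 alternatives. Of the 12 genes that fell, Adgre1, Mertk and Mrc1 spanned over 100 kb and 9 less. The count was 7 without the carboplatin-treated LPS-primed replicate 3, 9 without the carboplatin-treated LPS-tolerant replicate 2, and 0 without the replicate number.

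**Figure D4:**
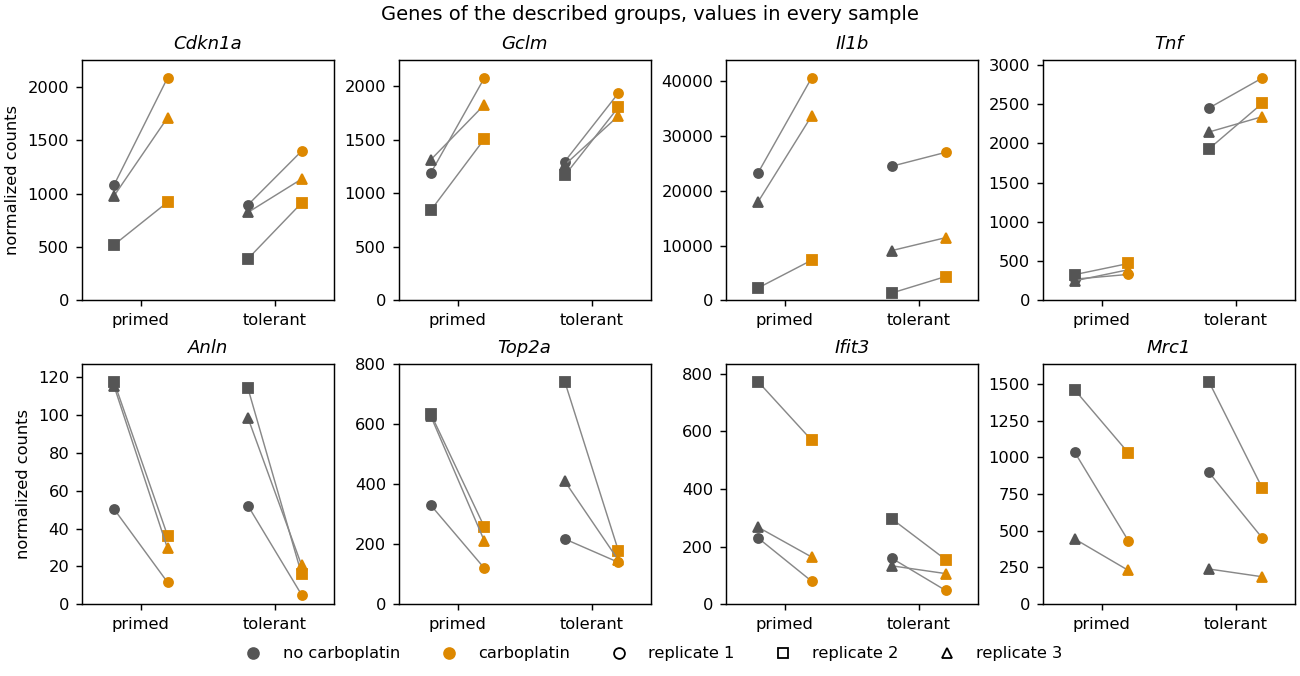
Normalized counts in each of the 12 samples for 8 genes of the groups described: Cdkn1a (p53), Gclm (antioxidant), Il1b and Tnf (cytokines), Anln and Top2a (cell division), Ifit3 (interferon) and Mrc1 (macrophage receptor); grey symbols are without and orange with carboplatin, and lines join same-numbered replicates. Every line rises for the first 4 genes and falls for the last 4, and the replicates of Il1b differ more from each other than the treated from the untreated samples.

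Of 21 tested genes that write, read or erase H3K9 methylation, a mark of silent chromatin, 1 rose and 1 fell (4.76% each). These shares lie near the 4.28% higher and 7.77% lower over all tested genes. The median log2FC of the list was 0.0661. Kdm3b, an H3K9 demethylase, rose by 0.33 ± 0.07 (adjusted p = 0.00358), and Uhrf1, which reads the mark and is itself made in S phase, had a log2FC of -1.14 ± 0.18 (adjusted p = 3.07e-04). Cbx5, Suv39h1, Ehmt1, Setdb2, Kdm4d, Cd40, Marco and Saa3 were also measured in the study by other assays. Cbx5, which encodes HP1-α, had lowest, median and highest normalized counts of 30.2, 59.9 and 83.3 without and 15.1, 60.1 and 89.4 with carboplatin, and its log2FC was -0.047 ± 0.21 (adjusted p = 0.919). The H3K9 methyltransferases Suv39h1 and Ehmt1 had log2FCs of -0.32 ± 0.21 (adjusted p = 0.361) and -0.012 ± 0.079 (adjusted p = 0.949). Setdb2 and Kdm4d had 0 to 8 counts per sample, too few to be tested at this depth. Cd40 (0.00061 ± 0.19), Marco (-0.22 ± 0.10) and Saa3 (-0.10 ± 0.055) did not pass either. A gene that did not pass was not shown to be unchanged.

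The span of a gene in the genome, which the comparison did not use, went with the direction of the effect. A position on GRCm39 (GENCODE vM39) was found for 10573 (97.3%) of the tested genes. The median log2FC was 0.0373 for the 2162 genes under 10 kb, 0.0555 for 3731 genes of 10 to 30 kb, 0.00742 for 3405 genes of 30 to 100 kb, -0.208 for 1106 genes of 100 to 300 kb and -0.956 for 169 genes over 300 kb. Genes called lower were 3.52% of the shortest bin, 27.6% of the bin from 100 to 300 kb and 74.6% (126 genes) of the longest, while genes called higher were 4.81%, 0.542% and 1.18%. The median span was 25.5 kb for all genes, 17.8 kb for those that rose, 104 kb for those that fell and 332 kb for those that fell by 4-fold or more. Over all genes span and log2FC had a Spearman's rho of -0.257, a description across genes that share libraries.

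The median span was 18.7 kb among the small increases and 54.8 kb among the small decreases. The definition of small effects leaves out large changes, and 5 of the 169 genes over 300 kb met it. Steepness therefore cannot be compared between the small effects and all called genes. Over 300 kb 2 genes rose, Slc7a11 (551 kb) and Pde4b (a cyclic AMP phosphodiesterase, 521 kb, log2FC 0.25 ± 0.077), the latter named after its values were seen. Genes at common fragile sites, which are long and break under replication stress, fell in 8 of 12 tested cases (66.7%) with a median log2FC of -1.0. None of the 12 was found to span under 100 kb, and their median span was 598 kb. Of all genes over 300 kb, 74.6% were called lower. Wwox (chr8:115166192-116079448, 913 kb) had 133, 116 and 108 normalized counts in LPS-primed cells and 30.8, 10.6 and 15.2 with carboplatin, and 102, 98.0 and 112 in LPS-tolerant cells and 28.8, 25.6 and 27.6 with carboplatin. Treated and untreated samples did not overlap, and the log2FC was -2.30 ± 0.20 (adjusted p = 3.19e-07). All 54 tested G2/M-phase genes and all 41 tested p53 targets spanned under 100 kb. The part of gene span in the result was not tested.

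**Figure D5:**
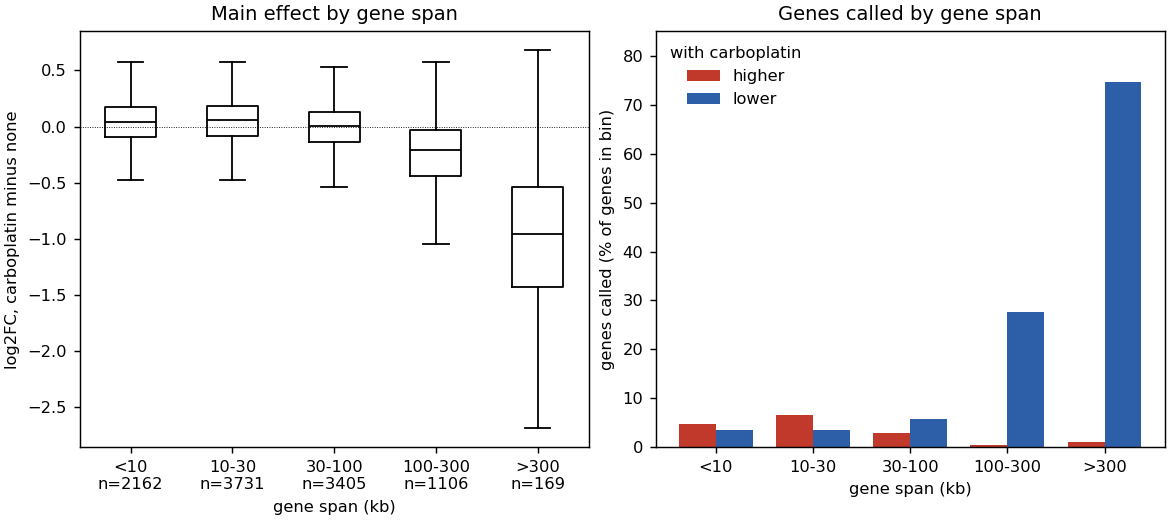
Left, the log2FC of carboplatin over 12 samples for 10573 genes by genomic span in kb (boxes, quartiles with the median; whiskers, 1.5 times the interquartile range; values beyond them not drawn); right, the percentage of genes in each bin called higher (red) or lower (blue). Genes over 300 kb have a median of -0.956, and 74.6% of them were called lower.

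Whether the states differed in their answer to carboplatin was tested gene by gene. At an adjusted p under 0.05, 1 gene of 10864 (0.00920%) differed, Stfa3. The unadjusted p was under 0.05 for 628 genes, and where no gene differs a share of 0.05 of all genes reaches that level. The SE of the difference had a median of 0.22 on the log2 scale, against 0.111 for the main effect. Stfa3 (stefin A3, an inhibitor of cathepsins) had a log2FC of 0.37 ± 0.22 in LPS-primed cells and -1.49 ± 0.19 in LPS-tolerant cells, and did not pass over both states (adjusted p = 0.0986). With no low-count filter the number of differing genes was 44. It was 0 without the replicate number, with scaling to the total counts, with at least 10 counts required in every sample, and without any 1 of 6 libraries (LPS-primed replicate 3, carboplatin-treated LPS-primed replicates 1 and 2, LPS-tolerant replicate 3, and carboplatin-treated LPS-tolerant replicates 1 and 3), and 13 without the carboplatin-treated LPS-tolerant replicate 2.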

How the data were processed

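Poly(A) RNA of 18 BMDM cultures (6 groups of 3) was sequenced as paired reads of 150 bp, of which the 12 samples with a carboplatin counterpart were used. The deposited values are raw counts per gene, which the authors made with HISAT2 and HTSeq on GRCm39. The libraries were made with a stranded mRNA kit. Versions, annotation and the strand option of the counting are not given in the sources used here. The rows that name no gene held 41.5 to 44% of the counts in a file and were removed, leaving 22852 gene rows and 6869667 to 11351065 counts per sample.

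Genes with low counts were removed with filterByExpr (minimum count 10, minimum total 15), libraries were scaled by TMM, and LPS state, replicate number and carboplatin were fitted with edgeR 4.0.16 (R 4.3.3, quasi-likelihood F test, two-sided, Benjamini-Hochberg adjustment over 10864 genes, prior count 0.125). State effects and their difference came from a fit of the 4 group means with the replicate number. The SE was the absolute log2FC over the root of F. A gene was called at an adjusted p under 0.05. Replicate numbers come from the sample titles. The deviations from the group means correlated at 0.304 to 0.617 in the 18 same-numbered pairs of samples, so the numbers were treated as pairs. The 36 different-numbered pairs ran from -0.534 to 0.239 and averaged -0.238. Deviations within a group cancel out, so this average must be negative where same-numbered samples correlate positively. The methods state 3 biological replicates, but not whether these were separate mice. The p-values measure the spread left within replicate numbers once LPS state and carboplatin are fitted. Samples of both LPS states with the same number counted separately, so variation of the carboplatin effect between the 3 replicates was not modelled on its own. The procedure was tested on simulated counts. These held the same carboplatin effect in every replicate, so they cannot show how such variation would change the calls.

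Named genes were the 8 smallest p in each direction among called genes and among small effects with 6 of 6 pairs alike, the 2 smallest p in each direction per list, the most abundant members of a list without calls, genes the study assayed by other means, and genes that differed between states. Other named genes were chosen for their known role after their values were seen. The comparison and the gene lists were chosen with earlier results of these data known. Alternatives were RLE or library size scaling, other filters, models, samples and thresholds, DESeq2 1.42.0, limma-voom (limma 3.58.1) and leaving out samples. Positions are from GENCODE vM39 (GRCm39) by symbol, and promoters from RefSeq (GRCm38.p6), which matched 8807 of the tested genes. Some genes that the rule would name are not reported here.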

Additional observations from a re-analysis of the deposited data

Results flagged for a closer look

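Stfa3 was flagged because the effect of carboplatin differed between the LPS states in the test of the difference itself. Its log2FC was 0.37 ± 0.22 (SE, n = 3 against 3, adjusted p = 0.355 in edgeR's quasi-likelihood test) in LPS-primed cells and -1.49 ± 0.19 (adjusted p = 9.34e-05) in LPS-tolerant cells, a difference of -1.87 ± 0.29 (adjusted p = 0.041). The normalized counts were 243, 7.43 and 56.1 in LPS-primed cells, 296, 15.9 and 69.5 in LPS-primed cells with carboplatin, 878, 38.4 and 374 in LPS-tolerant cells and 319, 17.1 and 121 in LPS-tolerant cells with carboplatin. Replicate 2 was lowest in each group. Each LPS-tolerant replicate was lower with carboplatin, and each LPS-primed replicate was higher. Stfa3 belongs to a family of near-identical genes, so the split of reads among its copies is uncertain. The call was lost without LPS-primed replicate 3 (adjusted p = 0.217), the carboplatin-treated LPS-primed replicate 1 (0.474) or 2 (0.0603), LPS-tolerant replicate 3 (0.328), the carboplatin-treated LPS-tolerant replicate 1 (0.396) or 3 (0.0859), without replicate number 1 (0.763) or 3 (0.353), with scaling to the total counts (0.0823) and without the replicate number in the model (0.9995). No gene differed with at least 10 counts required in every sample, a filter that Stfa3 did not pass. The difference was below 0 in each of the fits run for it.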

How the results depend on the processing

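No gene that was named by the rule and called in the main analysis reversed its direction under the alternatives run. Genes named after their values were seen, such as Slc40a1 and Mdm2, were not followed through the alternatives. The uncalled Cbx5 (-0.20 to 0.098), Cd40 (-0.21 to 0.12) and Ehmt1 (-0.041 to 0.030) changed sign, as did the median log2FC of the cytokines (-0.0936 to 0.17) and ribosomal proteins (-0.0212 to 0.0549). Without the replicate number in the model, the called genes numbered 239 (16 higher, 223 lower), the LPS-primed test called 33, the LPS-tolerant test 39 and the difference between states 0, and the small effects numbered 111 (12 higher, 99 lower). With all 18 samples in the fit 705 genes were called (198 higher, 507 lower), 683 of them among the 1309. Separate fits of 6 samples called 995 genes in LPS-tolerant cells and left 289 small effects (118 lower). Library size alone turned the balance to 780 higher and 713 lower genes and 443 small increases to 233 decreases, and gave 0 genes for the difference. The difference called 44 genes with no low-count filter and 0 with at least 10 counts in every sample. At an adjusted p under 0.25 there were 3481 genes (1684 higher, 1797 lower), 2244 in LPS-primed and 1709 in LPS-tolerant cells and 7 for the difference, and with an absolute log2FC over 2 as well there were 42 (1 higher, 41 lower). Leaving out single samples or whole replicate numbers gave 688 to 1362 genes in all, 157 to 532 higher and 496 to 842 lower, 246 to 621 in LPS-primed and 215 to 733 in LPS-tolerant cells, 0 to 22 for the difference, and 312 to 546 small effects, 93 to 288 higher and 189 to 294 lower. RLE scaling, DESeq2 and limma-voom gave 1311, 1426 and 1380 genes, of which DESeq2 shared 1289 and limma-voom 1276 with the 1309. Among lists, library size alone raised the cytokine count to 14 and the NF-κB count to 12, and no low-count filter raised the cytokine count to 14 and the cholesterol count to 10. With all 18 samples the counts were p53 targets 7, S-phase 7, crosslink repair 5, excision repair 2, cytokines 2, NF-κB 2, immediate-early 3, interferon-stimulated 0, cholesterol 0, ATF4 and unfolded protein response 2, antioxidant 6, macrophage receptors 5, heat-shock chaperones 5, glycolytic enzymes 0 and BCL2 family 0. With at least 10 counts in every sample, crosslink repair had 2 and the cyclin list 6. The causes of these shifts were not tested.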

Other observations

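Complete gene families were examined after the named genes had been seen, so their choice depended on these values. Proteasome subunits moved upward where they passed the test. Of 36, 18 rose and 0 fell with carboplatin over both LPS states, with a median log2FC of 0.229 against 0.0128 over all tested genes, and 7 of the 18 were small effects. They included the ATPases Psmc1 to Psmc6 and lid and base subunits such as Psmd2, Psmd3 and Psmd4. Leaving out single libraries left 12 to 20 called, and 0 passed without the replicate number. Of 33 heat-shock chaperones and cochaperones, 8 rose and 0 fell (median 0.155), among them Hspa1a, Hspa1b, Hsp90aa1, Hsph1 and Bag3, though reads of Hspa1a and Hspa1b are uncertain. The count was 4 without the carboplatin-treated LPS-primed replicate 3, 5 without LPS-primed replicate 1, its treated replicates 1 and 2, LPS-tolerant replicate 1 or its treated replicate 2, each left out in turn, and 1 without the replicate number.

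Of 8 histone methyltransferases of the KMT2 and SETD1 group, which write H3K4 methylation, Kmt2b, Kmt2d and Setd1a rose and 0 fell (median 0.174), with 2 or 3 called whichever library was left out and 1 without the replicate number. Of 12 subunits of RNA polymerase II, Polr2a rose and the other 11 did not pass the test (median 0.0535).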
